A study of Homo sapiens with 12 samples.

Results

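The genes of this report encode the aminoacyl-tRNA synthetases of the cytosol and of mitochondria, together with AIMP1 and AIMP2, scaffold proteins of the complex that many cytosolic synthetases form. They were chosen by gene symbol. Of the 38 genes, 20 act in the cytosol, 16 are mitochondrial and 2 encode the scaffolds, out of 12451 genes in the deposited table, and all 38 were among the 11303 genes tested. No measured value enters the choice, but the family was proposed with the values of all 4 groups known, so the cytosolic genes are set against the mitochondrial genes as a description, without a test.

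RNA was sequenced from a human triple negative breast cancer line, MDA-MB-231-ERβ, which expresses full-length ERβ upon exposure to doxycycline (dox). Cells were seeded with vehicle (ethanol) or 1 nM estradiol (E2) for 5 days in charcoal-stripped serum, and 20 ng/ml TNFα was present in some dishes for the final 3 h. The 12 libraries form 4 groups of 3, namely vehicle, TNFα, E2 and E2+TNFα. The protocol adds dox to the cells, so all groups express ERβ and none tells what the agents do without it, while the labels name dox for every group except E2+TNFα. A single engineered line was used and plated in replicate dishes. The study's methods describe its in vitro experiments in general as biological replicates, the labels say no more of separate cultures, and p-values measure the spread between these samples. Reads assigned to genes came to 35.8, 37.5 and 39.9 M in vehicle, 30.5, 30.2 and 19.5 M in TNFα, 15.8, 7.65 and 11.9 M in E2 and 16.8, 27.1 and 36.7 M in E2+TNFα libraries.

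Aminoacyl-tRNA synthetases attach each amino acid to its cognate tRNA and thereby supply the ribosome. They fall into class I and class II, which differ in the fold of the catalytic domain. Separate nuclear genes encode most mitochondrial enzymes, whereas GARS and KARS provide glycyl- and lysyl-tRNA synthetase to both compartments. Several cytosolic synthetases assemble with AIMP1, AIMP2 and EEF1E1 into the multi-synthetase complex. Many cytosolic synthetase genes are known targets of ATF4, the transcription factor that is translated when eIF2 is phosphorylated, and ATF4 binds DNA with C/EBP proteins at a composite element (CARE). WARS is also known as a gene induced by interferon.

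Because the CARE core is the element through which ATF4 is known to act on this family, it was looked for in promoters given by RefSeq (GRCh38.p14), from 250 bases before to 50 bases after each start. Promoters were found for 32 of the 38 genes, and not for YARS, LARS, VARS, DARS, VARS2 and AARS2. The core TGATGNAA, searched on both strands, was present in 6 of 16 cytosolic promoters, 1 of 14 mitochondrial promoters and 0 of 2 scaffold promoters, compared with 3.62% of all 35116 promoters. The windows below are 30 bases, read 5′ to 3′ on the strand of the gene, with the core or its reverse complement in capitals, and are shown so that the match in each gene can be seen.
AARS, chr16:70289675-70289704, minus strand: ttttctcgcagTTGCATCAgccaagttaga
CARS, chr11:3057407-3057436, minus strand: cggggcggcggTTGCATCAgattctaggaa
IARS, chr9:92293692-92293721, minus strand: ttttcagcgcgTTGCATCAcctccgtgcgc
MARS, chr12:57488053-57488082, plus strand: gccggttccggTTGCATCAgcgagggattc
NARS, chr18:57621804-57621833, minus strand: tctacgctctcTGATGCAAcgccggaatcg
TARS, chr5:33440956-33440985, plus strand: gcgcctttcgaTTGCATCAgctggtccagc
YARS2, chr12:32756076-32756105, minus strand: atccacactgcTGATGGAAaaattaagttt
All 6 cytosolic windows share the same 8 letters or their reverse complement, and YARS2 carries another base at the open position. The match begins 187 bases before the start in AARS and 197 bases before it in YARS2. Counted from the starts that RefSeq gives, it begins in the other cytosolic genes 13 bases before the start (IARS), 4 before (MARS), 2 before (CARS), 2 after (TARS) and 14 after (NARS). A core of the interferon-stimulated response element was present in 0 of 16 cytosolic promoters, WARS among them, and in 1 of 14 mitochondrial promoters (EARS2), compared with 3.57% of all promoters. The estrogen response element was found in none of the 32 promoters and in 0.057% of all promoters. A match is a description of the letters in this window and not of binding.

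In a principal component analysis of log2 CPM (counts per one M of TMM-scaled reads) the 3 vehicle libraries lay on one side of the first component, which took up 66.5% of the variance, and the 9 others on the other. Spearman correlations across genes, a description in which the points share libraries and depth, were 0.706 to 0.863 where one of the pair was vehicle, 0.928 to 0.989 between libraries of the other groups, and 0.973 to 0.998 within a group. Fold changes relative to vehicle moved with the GC content of exons (below). Whether vehicle was a batch of its own and what the agents changed relative to it cannot be told apart. The comparisons that do not use vehicle are therefore given first, and each comparison with vehicle is given as deposited and after the trends of each library with GC content and gene length were removed. On the second component, which took up 20.1% of the variance, the TNFα libraries lay at -67.6 to -57.8 and the 9 others at 3.87 to 33.5. Whether the TNFα libraries were a batch of their own and what E2 changed relative to them cannot be told apart either. The cell line's own markers were present in every library. VIM, which encodes vimentin of mesenchymal-like cells, was at 1042 to 1668 CPM and ESR2, which encodes ERβ, at 228 to 508 CPM. Some of these markers differed between groups. Mean levels of ESR2 were 473 ± 14.9 CPM (± SD of 3 libraries) in vehicle, 255 ± 26.7 in TNFα, 306 ± 14.7 in E2 and 448 ± 53.2 in E2+TNFα libraries, so that the receptor's own RNA was higher in E2+TNFα than in TNFα libraries by more than the SD of either group. KRT8 and KRT18, keratins of epithelial cells, were at 677 ± 62.4 and 445 ± 36.9 CPM (SD, n = 3) in vehicle, 1044 ± 83.5 and 1040 ± 67.4 in TNFα, 3507 ± 553 and 2082 ± 401 in E2 and 2959 ± 397 and 1453 ± 135 in E2+TNFα libraries. EGFR was at 251 ± 28.4, 249 ± 27.1, 68.6 ± 11.3 and 90.9 ± 8.35 CPM in the same order of groups, and CD44 at 755 ± 32.4, 1644 ± 50.6, 900 ± 103 and 1037 ± 72.4 CPM. Of 9 markers of other cell types 3 were in the table, and PTPRC (leukocytes), CD3E (T cells), PECAM1 and CDH5 (endothelium) and the hormone receptors ESR1 and PGR were not among its entries. The 3 summed to 103 to 107 CPM in vehicle, 106 to 116 in TNFα, 137 to 157 in E2 and 124 to 160 in E2+TNFα libraries. CD68 was the most abundant of them at 73.4 to 106 CPM, and the part that moved was CDH1 (E-cadherin), at 3.15 ± 0.525 CPM (SD, n = 3) in vehicle, 1.9 ± 0.192 in TNFα, 41.0 ± 11 in E2 and 40.7 ± 5.02 in E2+TNFα libraries. The part of ESR2, CDH1, the keratins, EGFR and CD44 in the results below was not tested. GREB1, a known estrogen target, was at 3.44 ± 0.161, 4.12 ± 0.465, 51.6 ± 8.84 and 52.8 ± 4.98 CPM in the same order, and NFKBIA, the NFκB inhibitor that TNFα induces, at 71.0 ± 2.2, 365 ± 11.5, 150 ± 8.58 and 277 ± 30.1 CPM.

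Levels between genes were compared per length, as RPKM (reads per kilobase of exon and per M reads). The median RPKM of the cytosolic genes was 63.0 in vehicle, 61.4 in TNFα, 48.2 in E2 and 43.4 in E2+TNFα libraries, and that of the mitochondrial genes 6.07, 8.27, 8.33 and 6.64. The highest mean of a mitochondrial gene was that of IARS2 in vehicle, at 36.1 ± 4.37 RPKM (SD, n = 3), followed at some distance by YARS2 in TNFα at 24.0 ± 2.21. Glycyl-tRNA synthetase (GARS) had the highest level in vehicle, at 133 ± 1.84 RPKM, followed by TARS at 119 ± 10.7 and AARS at 109 ± 1.89. Tyrosyl-tRNA synthetase (YARS) ranked first in TNFα at 224 ± 24.3 RPKM, ahead of MARS at 179 ± 19.7 and AARS at 168 ± 20.1, and the last 2 differed by less than their SD. FARSA, the α subunit of phenylalanyl-tRNA synthetase, ranked first in E2 at 107 ± 25.6 RPKM and in E2+TNFα at 96.4 ± 14.1, levels that differ from those of the next genes in each group (YARS at 95.9 ± 5.05 in E2 and VARS at 87.1 ± 19.0 in E2+TNFα) by less than their spread. Its β subunit FARSB was at 14.5 ± 0.947 RPKM in vehicle and 6.35 ± 0.23 in E2+TNFα.

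Levels of the remaining genes over the 12 libraries were as follows. Among cytosolic enzymes, VARS ranged from 73.3 to 172 RPKM and KARS from 58.8 to 99.2. QARS, for glutamine, ranged from 38.9 to 66.9 RPKM and HARS, for histidine, from 38 to 56.4, a narrow range within this family. Glutamyl-prolyl-tRNA synthetase (EPRS), which serves glutamate and proline from one polypeptide, ranged from 6.11 to 41.4 RPKM and IARS, for isoleucine, from 17.2 to 91.4. Among mitochondrial enzymes, TARS2 (13.6 to 25.5), SARS2 (10.9 to 19.5), VARS2 (6.82 to 14.8), EARS2 (6.03 to 15.7) and HARS2 (8.03 to 11 RPKM) had the higher levels. LARS2 (5.36 to 7.58), AARS2 (5.41 to 8.26), MARS2 (4.34 to 9.27), PARS2 (2.58 to 7.13), FARS2 (3.67 to 9.46), WARS2 (2.86 to 4.87) and CARS2 (2.18 to 3.98 RPKM) were lower. RARS2, for mitochondrial arginyl-tRNA, had the lowest mean in each group except vehicle, where PARS2 was lower.

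**Figure D1:**
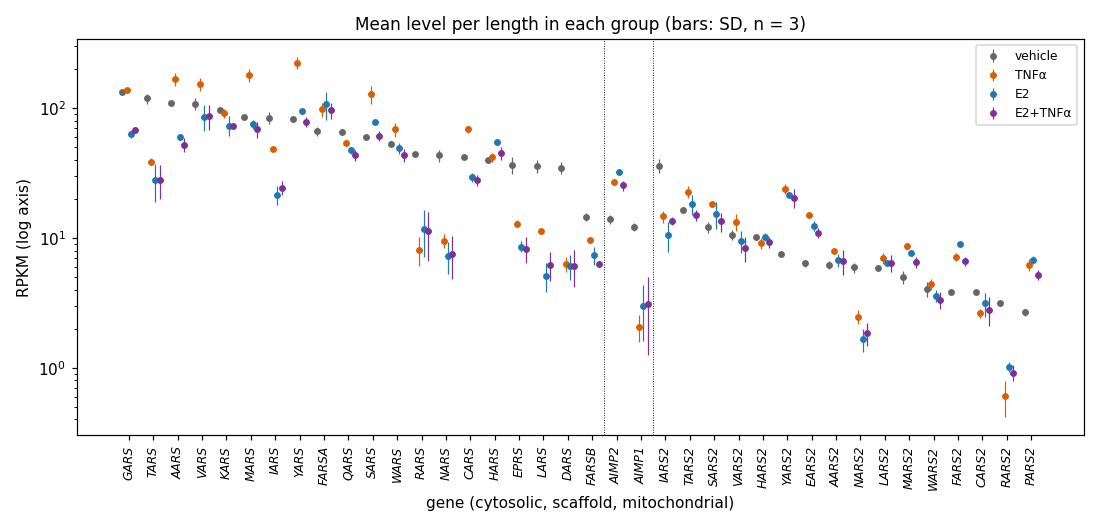
Mean RPKM (log axis) of each gene in vehicle, TNFα, E2 and E2+TNFα libraries, with bars for the SD (n = 3), cytosolic genes at left, scaffolds between the dotted lines and mitochondrial genes at right. Most cytosolic genes sit above most mitochondrial genes, and several cytosolic genes (YARS, MARS, SARS) are highest in TNFα.

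E2+TNFα relative to TNFα libraries asks what 5 days of E2 did to cells that all received TNFα. Most of the cytosolic genes and fewer of the mitochondrial genes were called lower, and the sets were not tested against each other. Of the 20 cytosolic genes 14 fell and 0 rose at an adjusted p of at most 0.1 in edgeR's quasi-likelihood F test (Benjamini-Hochberg over all genes tested), with a median log2 fold change of -0.66. Of the 16 mitochondrial genes 6 fell and 1 rose (median -0.25), and neither scaffold gene passed. With a library left out the mitochondrial falls numbered 3 (without TNFα replicate 1) to 9 (without E2 replicate 2). Among all genes tested, 21.0% fell and 24.4% rose at this threshold and the median was 0.04. At the thresholds of the study (log2 fold change of 1.5 or more in size, p under 0.05 and an adjusted p of at most 0.1), 2 cytosolic genes fell (AARS and YARS), compared with 2.01% of all genes. With the GC and length trends removed, 17 cytosolic genes fell (median -0.70) beside 30.0% of all genes, and 8 mitochondrial genes fell (median -0.21). As RNA was measured in bulk, fewer cells with an RNA and less of it per cell cannot be told apart.

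Alanyl-tRNA synthetase (AARS, chr16:70252394-70289509, hg38, minus strand) changed most. Its level was 579, 487 and 618 CPM in the TNFα libraries and 171, 155 and 197 CPM in the E2+TNFα libraries. In E2 libraries it was 192, 207 and 205 CPM, and in vehicle libraries 371, 363 and 359 CPM. The TNFα libraries were the highest, those with E2 the lowest, and the vehicle libraries lay between them without overlap. The log2 fold change was -1.69 ± 0.121 (SE, adjusted p = 4.08e-08), and between -1.80 and -1.61 when any library was left out.

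Tyrosyl-tRNA synthetase (YARS, chr1:32775239-32818032, minus strand) followed. It was at 718, 627 and 780 CPM in TNFα and 259, 222 and 265 CPM in E2+TNFα libraries. Vehicle libraries (262, 259 and 263 CPM) were at the level of the E2+TNFα libraries, and E2 libraries (299, 291 and 321 CPM) were slightly above. Only TNFα libraries were high, and the log2 fold change was -1.51 ± 0.114 (adjusted p = 7.66e-08). Exons of S100PBP on the opposite strand cover 12.5% of its exon bases, and whether counting used strand is not given in the sources used here.

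Methionyl-tRNA synthetase (MARS, chr12:57487953-57516655, plus strand), a member of the complex, was at 558, 455 and 551 CPM in TNFα and 197, 176 and 231 CPM in E2+TNFα libraries. With vehicle at 248, 252 and 246 CPM and E2 at 203, 236 and 217 CPM, the TNFα libraries stood alone here too. Its log2 fold change was -1.37 ± 0.125 (adjusted p = 5.78e-07). The 3′ end overlaps DDIT3, an ATF4 target on the opposite strand, over 2.3% of the exon bases.

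Further cytosolic genes fell, with vehicle levels that differed from gene to gene. CARS, for cysteine, was at 212, 187 and 210 CPM in TNFα and 82.7, 73.7 and 90.8 CPM in E2+TNFα libraries (log2 fold change -1.30). SARS, for serine, went from 636, 530 and 739 CPM to 316, 272 and 317 CPM (-1.07). GARS went from 387, 396 and 408 CPM to 200, 184 and 199 CPM (-1.03). In each of these genes the TNFα and E2+TNFα libraries did not overlap. Vehicle libraries were below TNFα in CARS (123, 127 and 122 CPM) and SARS (293, 294 and 305 CPM) and near it in GARS (375, 380 and 386 CPM). Tryptophanyl-tRNA synthetase (WARS) was at 213, 195 and 247 CPM in TNFα and 153, 121 and 139 CPM in E2+TNFα libraries, with a fitted log2 change of -0.67 ± 0.122 (adjusted p = 0.000559). IARS (-0.99), LARS (-0.88), VARS (-0.82), EPRS (-0.65) and FARSB (-0.60) also fell. Of these, IARS, LARS, EPRS and FARSB were highest in vehicle, with means of 396, 175, 184 and 44 CPM against 229, 56.2, 64.6 and 29.4 CPM in TNFα. KARS (-0.34) and QARS (-0.32) passed the threshold but not without TNFα replicate 2 (KARS, adjusted p = 0.119) or without TNFα replicate 1 (QARS, 0.111) or E2+TNFα replicate 2 (QARS, 0.108).

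The other cytosolic genes did not pass. TARS (-0.45), NARS (-0.33), DARS (-0.04) and FARSA (-0.02) had values below 0, and HARS (0.10) and RARS (0.48) above it. Without E2+TNFα replicate 2, TARS was at -0.69 (adjusted p = 0.034) and NARS at -0.65 (0.0301), and without E2+TNFα replicate 3 RARS was at 0.73 (0.0306). TARS also passed without E2 replicate 1 (-0.48, 0.0841) or E2 replicate 2 (-0.50, 0.0487). TARS, NARS, DARS and RARS have exons of low GC content, and genes of this kind varied more between replicates (below). With the trends removed, TARS (-0.54), NARS (-0.44) and DARS (-0.33) passed the threshold, with adjusted p-values of 0.00372, 0.0101 and 0.00658.

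**Figure D2:**
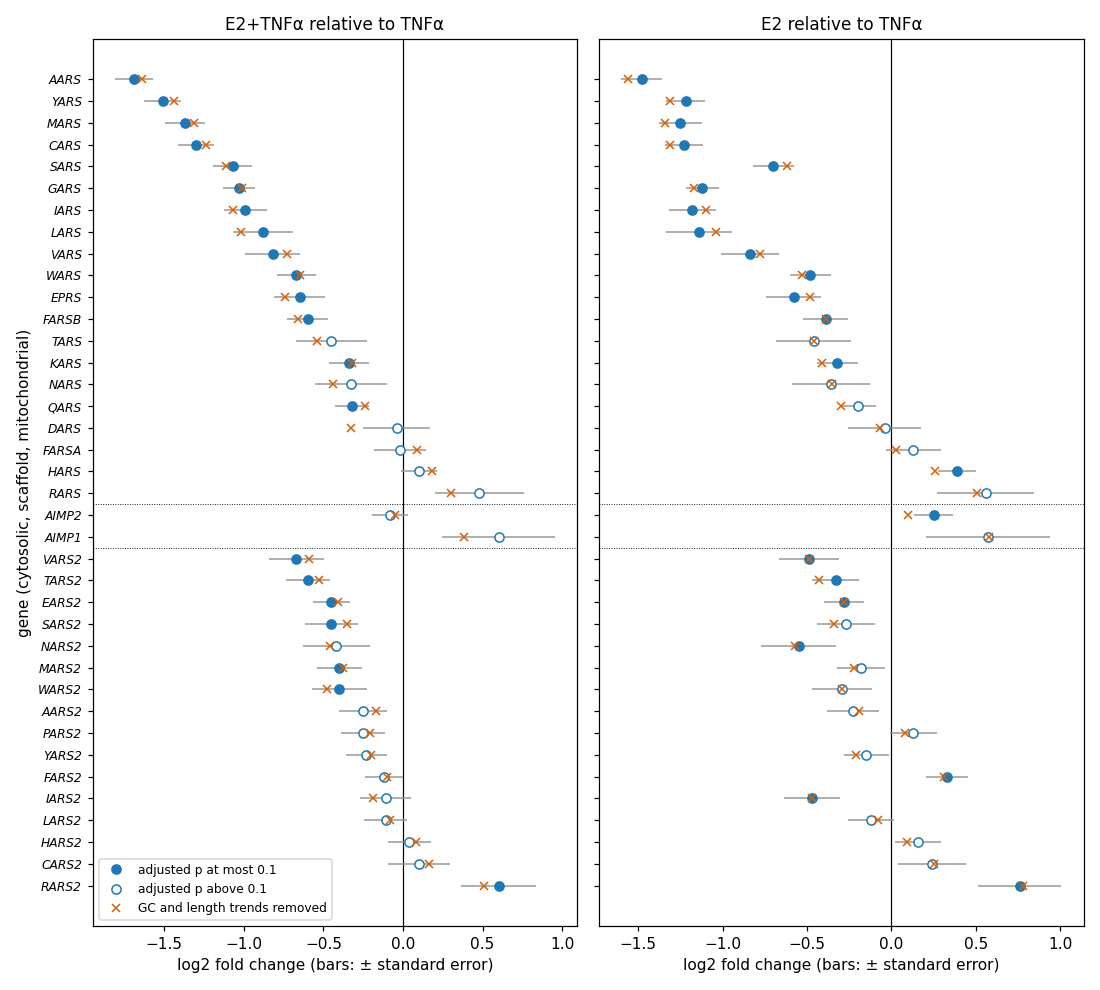
Log2 fold change of each gene in E2+TNFα relative to TNFα (left) and in E2 relative to TNFα (right), with bars for ± SE, filled circles for an adjusted p of at most 0.1 and crosses for values with GC and length trends removed. Cytosolic genes reach -1.69 (AARS) at left and mitochondrial genes stay between -0.67 (VARS2) and 0.60 (RARS2).

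The largest falls of mitochondrial genes were those of valyl- and threonyl-tRNA synthetase. VARS2 was at 55.2, 41.5 and 52.4 CPM in TNFα and 25.5, 29.4 and 38.5 CPM in E2+TNFα libraries, with a fitted log2 change of -0.67 ± 0.174 (adjusted p = 0.00718). TARS2 was at 71.1, 58.2 and 61.4 CPM and 41.4, 38 and 46.2 CPM, with a fitted log2 change of -0.60 ± 0.138 (adjusted p = 0.00312). The groups did not overlap in either gene. EARS2 (-0.45) fell as well. MARS2 (-0.40), WARS2 (-0.40), SARS2 (-0.45) and the single riser RARS2 (0.60) passed with all libraries and lost the call without TNFα replicate 1, at adjusted p-values of 0.136, 0.115, 0.141 and 0.224, and RARS2 was at no more than 4.2 CPM in these libraries. Each of the 4 also lost it without at least one other library, E2+TNFα replicate 2 among them for MARS2 (0.119), SARS2 (0.148) and RARS2 (0.179), and E2+TNFα replicate 3 for WARS2 (0.190). The annotation lists another gene on the same strand over all exon bases of VARS2 and over 69.9% of those of SARS2. NARS2 (-0.42), AARS2 (-0.25), PARS2 (-0.25), YARS2 (-0.23), FARS2 (-0.12), IARS2 (-0.11), LARS2 (-0.11), HARS2 (0.04) and CARS2 (0.10) did not pass. Of them, AARS2 passed without E2 replicate 2 or E2+TNFα replicate 3 (adjusted p down to 0.019), NARS2 without E2 replicate 1 or 2 or E2+TNFα replicate 2 (down to 0.0509), YARS2 without E2+TNFα replicate 1 (0.0716) and PARS2 without E2 replicate 2 (0.0658).

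Subgroups of the cytosolic genes were described by their counts beside the 21.0% of all genes that fell. Of 8 members of the multi-synthetase complex 6 fell (median -0.49), and of 12 enzymes outside it 8 fell (median -0.74). Among 10 class I enzymes 9 fell (median -0.85), all but RARS, and among 10 class II enzymes 5 fell (median -0.39). EPRS, which serves both glutamate and proline, was counted in class I only. AIMP1 was at 5.5, 8.55 and 6.19 CPM in TNFα and 6.8, 17.2 and 6.47 CPM in E2+TNFα libraries, with a fitted log2 change of 0.60 ± 0.354 (adjusted p = 0.202). Its E2+TNFα libraries spanned more than the difference between the groups, and the value rested on single libraries. It was -0.03 (adjusted p = 0.953) without E2+TNFα replicate 2 and 0.85 (0.0569) without E2+TNFα replicate 3, and 0.38 (0.199) with trends removed and 0.93 (0.000328) with an unwanted factor estimated from 20 housekeeping genes. AIMP2 was at 46.9, 47.8 and 48.2 CPM and 47.7, 40.2 and 46.9 CPM, a fitted log2 change of -0.08 ± 0.114 (adjusted p = 0.592). EEF1E1, the third scaffold, was at 2.19 ± 0.83 and 4.8 ± 3.5 CPM, a fitted log2 change of 1.13 ± 0.529 (adjusted p = 0.107). Its value ran from 0.36 (0.646, without E2+TNFα replicate 2) to 1.57 (0.00865, without E2+TNFα replicate 3), and it passed with DESeq2 (0.0879), with only the groups compared (0.0971), without E2 replicate 2 (0.0965) and with the unwanted factor (1.52, 0.00174), but not with trends removed (0.62, 0.148). The 6 cytosolic genes with the CARE core shown above had a median log2 fold change of -1.15, and 4 of them fell. The 10 whose promoter window did not hold it had a median of -0.47, and 7 of them fell, GARS and SARS included. YARS, LARS, VARS and DARS, whose changes are given above, had no promoter window and are in neither group.

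Genes of related pathways in the same comparison were taken from lists chosen with earlier results known, and their counts too stand beside the 21.0% of all genes that fell and the 24.4% that rose. Of 22 ATF4 targets other than synthetases 20 fell and 2 rose (median -2.09). The lowest were GDF15, a stress-induced cytokine, at 32.0 ± 14.4 CPM in TNFα and 0.14 ± 0.121 in E2+TNFα libraries, and NUPR1, a stress-induced regulator, with a log2 fold change of -4.79. The risers were ATF5 (1.28) and VLDLR (0.49). ATF4 itself was at 259 ± 9.56 CPM in vehicle, 732 ± 10.0 in TNFα, 341 ± 34.2 in E2 and 317 ± 31.2 in E2+TNFα libraries, a fitted log2 change of -1.21 ± 0.112 (adjusted p = 6.71e-07). In the list of the GCN2 and eIF2 pathway 3 of 17 genes fell and 1 rose (median -0.15). PPP1R15A, a phosphatase subunit that reverses eIF2 phosphorylation, fell (-1.46), and EIF2AK3, the eIF2 kinase PERK, rose (1.12). Of 16 amino acid transporters tested 9 fell and 2 rose (median -0.50). SLC1A4 (-2.23) and SLC43A1 (-2.15), which carry small neutral and large neutral amino acids, had the lowest values, and the glycine transporter SLC6A9 (1.28) and SLC36A1 (1.06) the highest.

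Translation partners have the same background of all genes. Of 25 tRNA and elongation genes of the cytosol 4 fell and 4 rose (median 0.00). XPOT, the tRNA export receptor, fell (-0.86) and POP1, a subunit of RNase P, rose (1.5). CLP1, a kinase of tRNA splicing, rose (0.81) and RPP38 of RNase P fell (-0.55), a call that at least one omitted library removed (adjusted p up to 0.204). Of 25 mitochondrial translation partners 5 fell and 1 rose (median 0.02). TRIT1, which modifies tRNA, fell (-0.76), as did the ribosome recycling factor MRRF (-0.69), and HSD17B10, a subunit of mitochondrial RNase P, rose (0.31, adjusted p up to 0.224 with a library left out). Of 8 interferon genes known to be induced together with WARS 3 fell and 3 rose (median -0.05). IRF1 (-1.63) and PSMB9 (-1.03) had the lowest values and IFIT3 (1.86) and ISG15 (1.80) the highest.

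**Figure D3:**
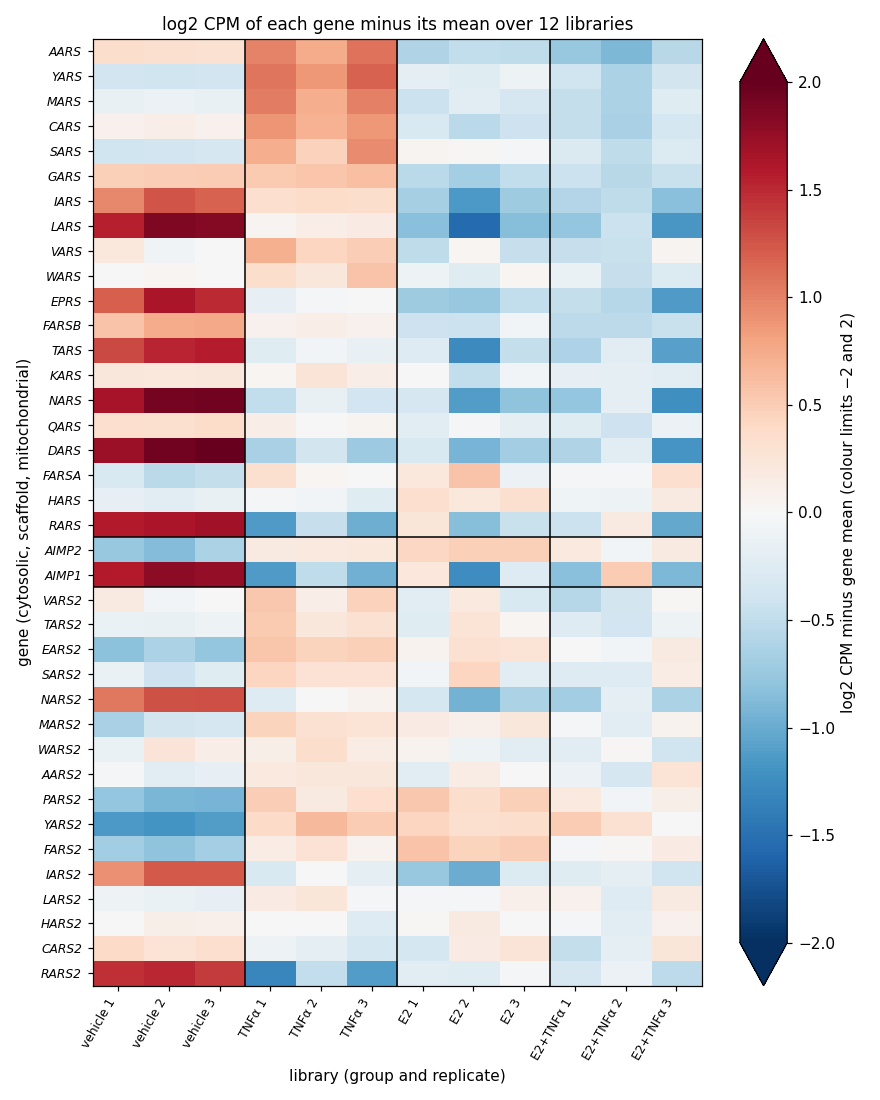
Log2 CPM of each gene minus its mean over the 12 libraries, with libraries in columns by group and genes in rows, cytosolic genes above the first line, scaffolds between the lines and mitochondrial genes below. AARS, YARS, MARS, CARS and SARS are highest in the TNFα libraries, while LARS, NARS, DARS, RARS, AIMP1, NARS2, IARS2 and RARS2 are highest in vehicle.

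E2 relative to TNFα libraries differ in both agents, and this comparison shares the TNFα libraries with the last. Of the cytosolic genes 13 fell and 1 rose (median -0.53), and of the mitochondrial genes 5 fell and 2 rose (median -0.21). Mitochondrial falls ranged from 1 (without TNFα replicate 3) to 6 and rises from 0 (without TNFα replicate 1) to 2 with a library left out. Cytosolic falls ranged from 12 to 15 and rises from 1 to 2. RARS rose without TNFα replicate 2, E2 replicate 2 or E2+TNFα replicate 2 or 3 (adjusted p down to 0.0651). TARS (0.0381), NARS (0.0711), QARS (0.0193), AARS2 (0.0647) and SARS2 (0.0117) fell in at least one such fit. KARS lost its call without TNFα replicate 2 or 3 (up to 0.137). Among all genes 21.8% fell and 24.9% rose (median 0.01). After removal of the trends 16 cytosolic genes fell and 2 rose (median -0.51), and 9 mitochondrial genes fell and 2 rose (median -0.21), beside 29.5% and 29.9% of all genes. AARS had a fitted log2 change of -1.48 ± 0.121 (adjusted p = 1.65e-07), MARS of -1.25 ± 0.125 (1.4e-06) and CARS of -1.23 ± 0.113 (6.14e-07). CARS was at 93.0, 79.4 and 86.4 CPM in E2 libraries, all below each TNFα library. YARS (-1.22), IARS (-1.18), LARS (-1.14) and GARS (-1.12) were close behind. SARS, at 400, 390 and 379 CPM in E2 libraries, lay between TNFα and E2+TNFα without overlap (-0.70). HARS rose (0.39), with 130, 119 and 129 CPM in E2 and 101, 99.4 and 87.7 CPM in TNFα libraries. WARS was at 155, 142 and 171 CPM in E2 libraries (-0.48 ± 0.123, adjusted p = 0.00572).

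Among mitochondrial genes in E2 relative to TNFα libraries, RARS2 and NARS2 had the largest changes of those called. RARS2 was at 3.9, 3.83 and 4.43 CPM in E2 and 1.84, 3.23 and 2.08 CPM in TNFα libraries, a fitted log2 change of 0.76 ± 0.248 (adjusted p = 0.0243), which without TNFα replicate 1 was 0.60 (0.106). NARS2 was at 5.06, 3.35 and 4.16 CPM and 5.43, 6.53 and 6.81 CPM, with -0.55 ± 0.224 (adjusted p = 0.0649), and lost the call without TNFα replicate 2 or 3 or E2 replicate 2 or 3 (adjusted p up to 0.159). EARS2 (-0.28), TARS2 (-0.33), VARS2 (-0.49), IARS2 (-0.47) and the riser FARS2 (0.33) also passed with all libraries and each lost the call without at least one of them, with adjusted p-values up to 0.199, 0.276, 0.143, 0.102 and 0.152. AIMP1 was at 14.0, 5.1 and 10.1 CPM in E2 libraries and had 0.57 ± 0.367 (adjusted p = 0.234). Its value was 0.58 (0.0747) with trends removed, 2.25 (1.98e-05) with the unwanted factor and 0.18 to 0.80 with a library left out. AIMP2, at 55.1, 57.6 and 57.6 CPM, had 0.25 ± 0.115 (adjusted p = 0.0959), and 10 of the 12 fits that each left out a library lost this call (adjusted p up to 0.207). It did not pass with trends removed (0.10, 0.32), with the unwanted factor (0.05, 0.847) or with scaling by library size only (0.09, 0.499).

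E2+TNFα relative to E2 libraries asks what 3 h of TNFα did in cells that already had E2, and few genes of the family differed. At an adjusted p of at most 0.1, edgeR called 0 of 20 cytosolic genes (median -0.08), and 3 were lower at an unadjusted p under 0.05, beside 10.5% of all genes. Of the mitochondrial genes 1 fell and 0 rose (median -0.15). Among all genes 3.34% fell and 2.65% rose. DESeq2 called 3 cytosolic genes, 2 mitochondrial genes and 1 scaffold gene lower, beside 7.38% of all genes. The mitochondrial gene was FARS2, for phenylalanine, at 39.5, 36.4 and 37.3 CPM in E2 and 26.0, 27.0 and 29.9 CPM in E2+TNFα libraries, a fitted log2 change of -0.45 ± 0.124 (adjusted p = 0.0684). The groups did not overlap, but the call was lost without E2 replicate 1, E2+TNFα replicate 1 or 2, TNFα replicate 1 or vehicle replicate 3 (adjusted p up to 0.208). AARS had -0.21 ± 0.119, YARS -0.29 ± 0.112 and SARS -0.37 ± 0.122, with adjusted p-values of 0.353, 0.177 and 0.118. With a library left out, 0 to 3 cytosolic genes were called lower. Without E2+TNFα replicate 3 these were HARS (-0.38, adjusted p = 0.0536), SARS (-0.41, 0.0767) and YARS (-0.34, 0.1). SARS also passed without E2 replicate 3 (0.0828) and HARS without E2 replicate 2 (0.0938). IARS2 rose without E2 replicate 3 (0.58, 0.033). WARS had -0.18 ± 0.123 (adjusted p = 0.437), AIMP1 0.02 ± 0.362 (0.981) and AIMP2 -0.34 ± 0.115 (0.129). AIMP1 passed with the unwanted factor (-1.32, adjusted p = 0.00825), and AIMP2 with DESeq2 (-0.35, 0.0296) and without E2+TNFα replicate 3 (-0.37, 0.0849). Cytosolic values lay between -0.37 and 0.26, whereas those of the E2+TNFα to TNFα comparison reached -1.69, and the 2 comparisons share the E2+TNFα libraries.

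**Figure D4:**
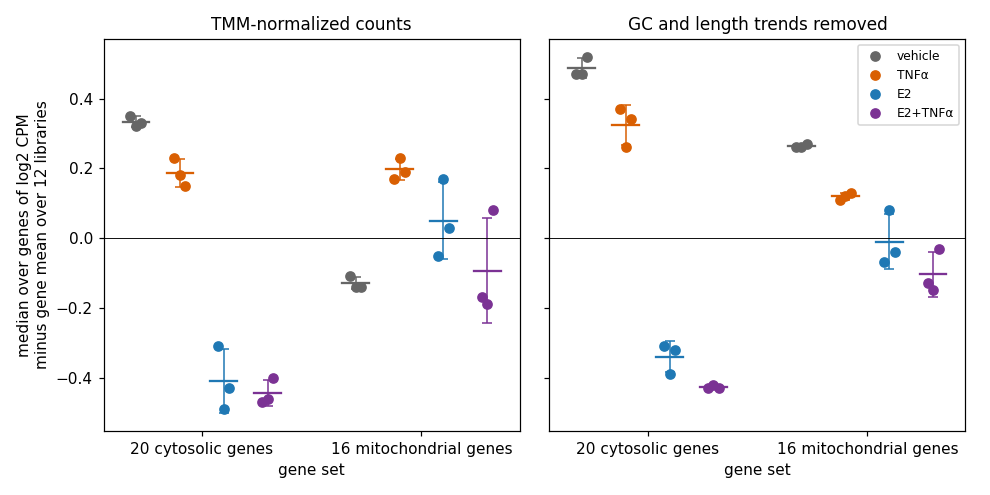
Median over 20 cytosolic and 16 mitochondrial genes of log2 CPM minus each gene's mean over 12 libraries, from TMM-normalized counts (left) and with GC and length trends removed (right), with a point for each library and lines for the group mean ± SD (n = 3). Cytosolic medians of libraries with E2 lie between -0.49 and -0.31 and those of libraries without E2 between 0.15 and 0.35 at left.

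Per library, the cytosolic median of log2 CPM relative to each gene's mean was 0.35, 0.32 and 0.33 in vehicle, 0.23, 0.18 and 0.15 in TNFα, -0.31, -0.49 and -0.43 in E2 and -0.47, -0.46 and -0.40 in E2+TNFα libraries. All 6 libraries with E2 were below all 6 without it. The mitochondrial median was -0.11, -0.14 and -0.14 in vehicle, 0.17, 0.23 and 0.19 in TNFα, -0.05, 0.17 and 0.03 in E2 and -0.17, -0.19 and 0.08 in E2+TNFα libraries, where the groups overlapped in part. On the scale with trends removed the vehicle libraries had the highest mitochondrial medians, at 0.26, 0.26 and 0.27, and the highest cytosolic medians, at 0.47, 0.47 and 0.52.

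In E2 relative to vehicle libraries 14 cytosolic genes fell and 4 rose (median -0.69), and 3 mitochondrial genes fell and 6 rose (median 0.13). Among all genes 41.7% fell and 40.1% rose. With the trends removed 18 cytosolic genes fell (median -0.82) beside 38.4% of all genes, and the mitochondrial genes had 9 falls and 6 rises (median -0.37), with 38.9% of all genes higher. The direction turned, with a call on both scales, for YARS (0.22 to -0.48), FARSA (0.68 to -0.31), HARS (0.46 to -0.31) and SARS2 (0.33 to -0.61). As deposited, the calls of YARS and SARS2 were lost in 8 and 9 of the 12 fits that each left out a library (adjusted p up to 0.312 and 0.308). LARS, for leucine, was at 152, 188 and 185 CPM in vehicle and 28.9, 17.9 and 28.8 CPM in E2 libraries, with a fitted log2 change of -2.78 ± 0.202 (adjusted p = 1.53e-08) as deposited and -1.22 with trends removed. NARS, for asparagine, was at 109, 131 and 132 CPM and 27.3, 15.9 and 19.8 CPM, with -2.54 ± 0.239 (1.75e-07) and -1.43. DARS, for aspartate, was at 96.2, 112 and 119 CPM and 23.8, 15.5 and 18.3 CPM, with -2.49 ± 0.222 (1.03e-07) and -0.63. Each was several fold lower in all E2 libraries, and the fitted change shrank when the trends were removed. Among mitochondrial genes NARS2 had -1.80 ± 0.222 (adjusted p = 2.65e-06) and -1.04 with trends removed, and IARS2 had -1.77 ± 0.168 (1.91e-07) and -0.80. With an unwanted factor estimated from 20 housekeeping genes none of these 5 calls held, at -0.50 for LARS (adjusted p = 0.556), 0.28 for NARS (0.789), -0.09 for DARS (0.945), -0.11 for NARS2 (0.96) and -0.59 for IARS2 (0.559). The factor was estimated over all groups and may hold part of the difference between them. Of the 29 genes of the family called, 9 changed direction with this factor, namely NARS, RARS (-1.89 to 1.49), TARS (-2.08 to 0.72), KARS (-0.39 to 0.36), FARSA (0.68 to -0.69), SARS (0.39 to -0.22), YARS (0.22 to -0.26), SARS2 (0.33 to -1.16) and AIMP1, of which AIMP1 passed the threshold on both scales. WARS was at 168, 172 and 166 CPM in vehicle and did not pass (-0.11 ± 0.122, adjusted p = 0.423). It passed with trends removed (-0.24, 0.0285) and with scaling by library size only (-0.46, 0.00315), but not with the unwanted factor (-0.43, 0.606). AARS (-0.86, with trends removed -1.44) and GARS (-1.06 and -1.19) were lower on both scales.

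Scaffold genes moved in opposite directions relative to vehicle. AIMP1 was at 36.5, 41.8 and 41.1 CPM in vehicle, above all other libraries, and had a fitted log2 change of -1.98 ± 0.362 (adjusted p = 0.000132) in E2, which became -0.40 (adjusted p = 0.151) with trends removed and 2.79 (0.0222) with the unwanted factor. AIMP2 was at 24.5, 22.8 and 26.7 CPM in vehicle, below all other libraries, and had 1.20 ± 0.117 (adjusted p = 2.41e-07) in E2, 0.71 with trends removed and 0.64 (0.367) with the unwanted factor. Exons of EIF2AK1 on the opposite strand cover 30.1% of the exon bases of AIMP2, and a copy of 367 matching bases lies elsewhere on chromosome 7.

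In TNFα relative to vehicle libraries genes of the family were called in both directions, as were genes in general. Of the cytosolic genes 9 fell and 8 rose (median -0.01), and of the mitochondrial genes 4 fell and 10 rose (median 0.34), beside 41.6% and 40.3% of all genes. With a library left out the mitochondrial rises numbered 7 to 10, and LARS2 lost its call in 6 of the 12 fits (adjusted p up to 0.256). After removal of the trends the cytosolic genes had 10 falls and 7 rises (median -0.09) and the mitochondrial genes 8 falls and 7 rises (median -0.18), beside 37.3% and 39.0% of all genes. Of 33 genes of the family called, 7 were then called in the opposite direction (IARS, VARS, FARSA, FARSB, VARS2, AARS2 and SARS2), of which VARS2 and AARS2 lost the first call in 6 and 2 of the 12 fits with a library left out. YARS had the largest cytosolic rise (1.44, with trends removed 0.83), followed by SARS (1.09 and 1.75) and MARS (1.07 and 0.51). DARS had -2.45 ± 0.216 (adjusted p = 1.46e-07), RARS, for arginine, -2.45 ± 0.289 (2.12e-06) and NARS -2.18 ± 0.230 (7.16e-07), with -0.55, -1.08 and -1.08 when trends were removed. None of these 3 calls held with the unwanted factor, at -0.91 (adjusted p = 0.15), -0.28 (0.741) and -0.36 (0.558). RARS was at 91.5, 94.5 and 98.6 CPM in vehicle and 14.0, 22.3 and 15.6 CPM in TNFα libraries. RARS2 was at 12.5, 12.9 and 12 CPM in vehicle and had -2.38 ± 0.233 (adjusted p = 3.72e-07), with trends removed -1.30. Tyrosyl-tRNA synthetase of mitochondria (YARS2) was at 20.2, 19.5 and 20.7 CPM in vehicle and 58.6, 70.4 and 64.0 CPM in TNFα libraries, with 1.67 ± 0.135 (adjusted p = 6.71e-08) and 1.59. Its E2 libraries (60.2, 55.8 and 57.2 CPM) and E2+TNFα libraries (63.9, 55.6 and 45.2 CPM) were also above vehicle, so that vehicle stood alone. WARS had 0.37 ± 0.122 (adjusted p = 0.0109), AIMP1 -2.56 ± 0.361 (1.22e-05, with trends removed -0.97) and AIMP2 0.95 ± 0.115 (2.73e-06, with trends removed 0.61). The call of WARS was lost with scaling by library size only (0.174, adjusted p = 0.196). With the unwanted factor WARS was at 0.17 (adjusted p = 0.767), AIMP1 at 0.54 (0.452) and AIMP2 at 0.59 (0.177), while RARS2 (-1.57, 0.0991) and YARS2 (1.91, 0.00254) passed.

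In E2+TNFα relative to vehicle libraries 15 cytosolic genes fell and 1 rose (median -0.78), and 5 mitochondrial genes fell and 5 rose (median -0.01), beside 41.5% and 39.1% of all genes. Mitochondrial falls numbered 3 to 6 and rises 4 to 6 with a library left out, and without E2+TNFα replicate 1 CARS2 and VARS2 were no longer called (adjusted p = 0.213 and 0.315). Cytosolic falls numbered 13 to 16 and rises 1 to 2, where HARS also rose without E2 replicate 2 (0.20, 0.05). With the trends removed 19 cytosolic genes fell (median -0.87) beside 37.2% of all genes, and the mitochondrial genes had 9 falls and 6 rises (median -0.36), with 38.8% of all genes higher. LARS had -2.52 ± 0.196 (adjusted p = 4.03e-08), NARS -2.51 ± 0.233 (2.27e-07) and DARS -2.50 ± 0.217 (1.19e-07), with -1.19, -1.52 and -0.89 when trends were removed. RARS2 had -1.77 ± 0.226 (adjusted p = 4.82e-06) and NARS2 -1.68 ± 0.210 (4.01e-06), with -0.79 and -0.93. With the unwanted factor none of these 5 calls held, at -0.84 (LARS, adjusted p = 0.158), -0.47 (NARS, 0.506), -0.76 (DARS, 0.304), -0.85 (RARS2, 0.441) and -0.43 (NARS2, 0.667). FARSA, the single cytosolic riser (0.54), was at -0.26 with trends removed, and SARS was then the single cytosolic gene above 0, at 0.64. WARS had -0.29 ± 0.122 (adjusted p = 0.0389), a call lost without E2+TNFα replicate 2 (adjusted p = 0.147). AIMP1 had -1.96 ± 0.351 (0.000123) and AIMP2 0.86 ± 0.115 (7.23e-06), with -0.59 and 0.56 when trends were removed and 1.47 (0.0698) and 0.44 (0.388) with the unwanted factor. The 3 comparisons with vehicle share its libraries.

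**Figure D5:**
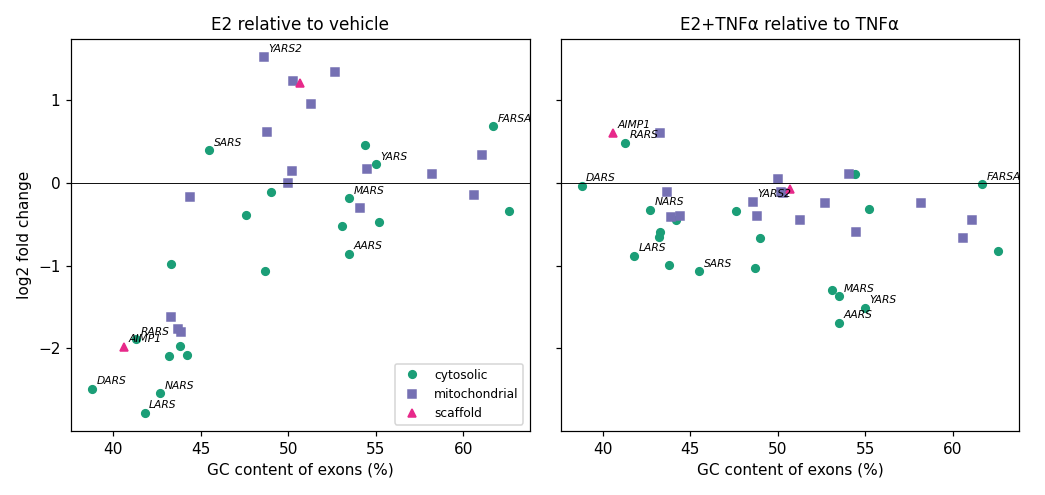
Log2 fold change against the GC content of exons (%) for cytosolic (circles), mitochondrial (squares) and scaffold (triangles) genes, in E2 relative to vehicle (left) and E2+TNFα relative to TNFα (right). The 13 genes with a GC content under 45% lie below 0 at left, with a median of -1.97, and have the same median as the other 25 genes (-0.40) at right.

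Fold changes relative to vehicle rose with exon GC content in the family as they did over all genes. The Spearman correlation with GC content was 0.635 over the 38 genes and 0.655 over all 11303 genes in E2, 0.655 and 0.706 in TNFα and 0.633 and 0.665 in E2+TNFα relative to vehicle, a description in which the genes share libraries. The 13 genes with a GC content under 45% (38.8% to 44.4%) had a median log2 fold change of -1.97 in E2 relative to vehicle, and all 13 were below 0, whereas the median of the 25 other genes (45.5% to 62.6%) was 0.14. Respective medians were -1.62 and 0.56 in TNFα and -1.96 and -0.07 in E2+TNFα relative to vehicle. After removal of the trends they were -0.80 and -0.40 in E2, -0.47 and 0.12 in TNFα and -0.84 and -0.39 in E2+TNFα. In E2+TNFα relative to TNFα libraries both medians were -0.40, and the correlations with GC content were -0.191 (family) and -0.21 (all genes). In E2+TNFα relative to E2 the correlations were -0.432 and -0.331. The medians there were 0.00 and -0.17, and -0.19 and -0.08 with trends removed. In E2 relative to TNFα the correlations were -0.0763 and -0.0114. Genes of low GC content also varied more between replicates, with a median SD within groups of 0.243 on the log2 scale against 0.138, and 0.147 against 0.0912 with trends removed. The part that RNA quality or library preparation has in this was not tested.

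For the interaction, which is the TNFα effect with E2 minus that without it, 8 cytosolic genes were called higher and 9 lower, and 3 mitochondrial genes higher and 8 lower, beside 39.0% and 37.6% of all genes. The term includes the vehicle libraries. Of the 30 genes of the family called, 18 were called in the same direction and 7 in the opposite direction with the trends removed, and 2 in the same direction with the unwanted factor. FARSB lost its call in 9 of the 12 fits with a library left out, and HARS, VARS and VARS2 in 6 each (adjusted p up to 0.291, 0.122, 0.194 and 0.174). The 2 called in the same direction with the unwanted factor were YARS (-1.73 ± 0.160, adjusted p = 6.88e-07) and YARS2 (-1.75 ± 0.188, 2.12e-06). With trends removed they were at -0.96 and -1.59. DARS (2.45 ± 0.303, 6.68e-06), RARS (2.37 ± 0.401, 0.000105) and NARS (2.21 ± 0.324, 2.9e-05) had the largest values among cytosolic genes, with 0.30, 0.87 and 0.99 when trends were removed. With the unwanted factor DARS was at 0.24 (adjusted p = 0.84), RARS at -0.74 (0.549) and NARS at -0.39 (0.698). RARS2 had 2.22 ± 0.334 (3.67e-05) and 1.02. WARS had -0.56 ± 0.173 (0.00943) and -0.42, AIMP1 2.58 ± 0.505 (0.000356) and 0.78, and AIMP2 -1.29 ± 0.163 (7.92e-06) and -0.76. Values with the unwanted factor were 1.08 for RARS2 (adjusted p = 0.468), -0.27 for WARS (0.755), -1.86 for AIMP1 (0.115) and -0.78 for AIMP2 (0.258). The call of WARS was also lost with scaling by library size only (-0.24, 0.214).

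Sequence shared with other loci limits a few values. Stretches of at least 200 bases at 90% identity or more lie elsewhere in the genome for AIMP2, FARSB, IARS and YARS2, so reads from them could have been assigned to either place. Exons on the opposite strand cover 22.5% of the exon bases of HARS, whose start faces that of HARS2, 16.9% of those of YARS2, 15.1% of those of GARS, 11.9% of those of AIMP1 and 11.3% of those of WARS2, beside the values for YARS and AIMP2 above. Another gene on the same strand covers 11.4% of the exon bases of YARS2. The other genes of the family had 7% or less on the opposite strand.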

How the data were processed

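MDA-MB-231-ERβ libraries were prepared by the authors from polyadenylated RNA with a stranded kit and sequenced as paired-end reads. Per the labels, reads were mapped with TopHat2 2.1.0 to hg38 and assigned with featureCounts, and the deposited values are unnormalized read counts per gene. The batch correction with RUVseq that the methods describe is not in them, and neither its batches nor its genes are given in the sources used here. The table also holds gene coordinates and lengths. Of 12567 entries, 46 repeated another entry exactly and 70 shared both locus and counts with a different symbol, and these were dropped.

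RPKM was computed from counts and exon length, and genes that reached an RPKM of 1 in 3 or more libraries were kept for testing (11303). Counts were scaled by TMM and tested with edgeR 4.0.16 (quasi-likelihood F test, two-sided) in R 4.3.3, in one fit of 4 group means over 12 libraries, with Benjamini-Hochberg adjustment over all genes. CPM uses TMM-scaled library sizes. Loess trends (span 0.3) of each library with exon GC content and length were removed through offsets. Exons were aligned with minimap2 2.31 to find copies. The edgeR and DESeq2 fits and the removal of trends were run on simulated counts with known changes, and the other steps were not. Alternatives included DESeq2 1.42.0, other scalings and filters, an unwanted factor, the replicate block and each library left out. The unwanted factor was the first component of housekeeping gene levels over all 12 libraries, with group differences left in. A call lost with it therefore does not tell an unwanted difference from a difference between groups. Library totals were 7.65 to 39.9 M reads.

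All 38 genes are named with a level. Full statistics are given for the 3 cytosolic and 2 mitochondrial genes with the largest absolute change among those called in each comparison, and for WARS, AIMP1 and AIMP2. Of each related list, the 2 highest and 2 lowest called genes are named, with ATF4 and EEF1E1, and other genes were named after their values were seen. Genes and lists were chosen with earlier results of these data known.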

Additional observations from a re-analysis of the deposited data

Results flagged for a closer look

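A single kind of result was picked out, namely a TNFα effect that differed between cells with and without E2 by the interaction test of edgeR (adjusted p of at most 0.1). It was met by 30 of the 38 genes, and 37.6% of all genes tested were called lower and 39.0% higher by the same test. Values are on the log2 scale, as the TNFα effect with E2 minus that without E2, and all use the vehicle libraries, which cannot be told apart from a batch of their own.

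Higher cytosolic values were those of DARS (2.45), RARS (2.37), NARS (2.21), LARS (1.90), TARS (1.62), EPRS (1.45), IARS (0.97) and FARSB (0.37). All 8 have exons with a GC content under 45%. Lower cytosolic values were those of YARS (-1.73), SARS (-1.46), MARS (-1.19), AARS (-0.83), CARS (-0.78), FARSA (-0.70), WARS (-0.56), VARS (-0.48) and HARS (-0.36), all with a GC content over 45%. Among mitochondrial genes, RARS2 (2.22), IARS2 (1.66) and NARS2 (1.38) were higher, and YARS2 (-1.75), PARS2 (-1.58), EARS2 (-1.40), FARS2 (-1.34), MARS2 (-1.01), SARS2 (-0.78), TARS2 (-0.76) and VARS2 (-0.52) were lower. The scaffold genes AIMP1 (2.58) and AIMP2 (-1.29) moved apart.

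With the trends with GC content and length removed, 18 of the 30 were called in the same direction and 7 in the opposite direction, among them FARSB (-0.68), FARSA (0.39), VARS (0.32) and HARS (0.49). Of these, FARSB lost its first call in 9 of the 12 fits that each left out a library, and VARS and HARS in 6 each, as did VARS2. YARS (-0.96), SARS (-2.23), EARS2 (-1.14), YARS2 (-1.59), FARS2 (-1.16) and PARS2 (-1.11) kept a lower value. With the unwanted factor 12 of the 30 changed direction, and YARS and YARS2 alone were still called in the same direction. The cause of these changes was not tested.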

How the results depend on the processing

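The medians of E2+TNFα relative to TNFα kept their direction under every alternative tried, at -0.738 to -0.613 for cytosolic genes with a library left out. The cytosolic medians of E2 and of E2+TNFα relative to vehicle also stayed below 0, while the other medians that use vehicle turned under at least one alternative. Removing GC and length trends gave, with and without the replicate block, -0.824 (E2), -0.095 (TNFα) and -0.866 (E2+TNFα) for cytosolic medians, and -0.367, -0.184 (-0.182 with the block) and -0.365 for mitochondrial medians, the first 2 reversed, as was the mitochondrial interaction at 0.141 (0.139 with the block). Scaling by library size only, which moves all genes, gave -1.046, -0.205 and -1.021 (cytosolic) and -0.232, 0.141 and -0.252 (mitochondrial) relative to vehicle, -0.687 and -0.365 in E2 relative to TNFα, 0.049 for cytosolic genes in E2+TNFα relative to E2, and 0.357 and -0.118 for the interaction. An unwanted factor from housekeeping genes gave -0.591 for cytosolic genes in E2 relative to vehicle, -0.465, -0.192 and -0.481 for mitochondrial genes relative to vehicle in the same order (the first 2 reversed), -0.189 for cytosolic genes in E2+TNFα relative to E2, -0.070 for mitochondrial genes in E2 relative to TNFα, and -0.186 and 0.287 for the interaction. With it 7, 7 and 9 genes were called in the 3 vehicle comparisons (29, 33 and 28 without it). Of these, 5, 7 and 7 were calls kept in the same direction. For the interaction 2 were called (30 without it). Shares of all genes called with this factor are not given here, so these counts are not set against other genes and are not read as particular to the family. Requiring at least 10 counts in every library gave -0.062 and 0.286 for TNFα and -0.835 (cytosolic) for E2+TNFα relative to vehicle. The cause of each change was not tested.

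In E2+TNFα relative to E2 the single call became 0 with library size only, the replicate block, the groups compared only or no vehicle libraries in the fit. It became 2 with trends removed (with or without the replicate block), 4 with the unwanted factor and 6 with DESeq2. Of these settings the share of all genes is given here for DESeq2 alone (7.38% lower). The other counts are not set against other genes and are not read as particular to the family. Replicate numbers do not pair these samples (correlations of same-numbered deviations from -0.452 to 0.433), and the block changed no other count by over 1.5 times. With a library left out, this count ran from 0 to 5, and medians from -0.052 to 0.083 (cytosolic) and 0.291 to 0.431 (mitochondrial) in TNFα relative to vehicle, -0.83 to -0.726 (cytosolic) in E2+TNFα relative to vehicle, -0.666 to -0.507 (cytosolic) in E2 relative to TNFα and -0.158 to 0.109 for the cytosolic interaction, where E2 replicate 2 turned the sign of the first and the last (0.083 and -0.158). Of all genes of the family called relative to vehicle, 4 (E2), 7 (TNFα) and 1 (E2+TNFα) were called in the opposite direction with trends removed. With the unwanted factor the direction turned for 9 (E2), 10 (TNFα) and 4 (E2+TNFα) of the genes called relative to vehicle, 1 in E2 relative to TNFα and 12 for the interaction, and AIMP1 alone was then called in the opposite direction (E2 and E2+TNFα). The values with this factor include AIMP1 at 2.785, 0.539 and 1.468 relative to vehicle, -1.318 in E2+TNFα relative to E2 (adjusted p = 0.00825, where it was near 0 and not called without the factor) and -1.856 for the interaction, NARS at 0.284 in E2 relative to vehicle and -0.390 for the interaction, RARS at -0.736 for the interaction, and NARS2 at 0.051 in E2 relative to TNFα. AIMP1 in E2+TNFα relative to E2 was also below 0 with trends removed (-0.20) and without E2+TNFα replicate 2 (-0.61).

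Depth limits RARS2, NARS2, AIMP1 and EEF1E1, which were at a few CPM in some libraries. The E2 library of 7.65 M reads was the shallowest.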
